A study of Mus musculus with 7 samples.

Results

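The mitochondrial carrier family SLC25 was followed in mouse embryonic stem cells in which NeuroD1, a helix-loop-helix activator of neuronal genes, was switched on. Every symbol of the form Slc25a followed by a number was taken from the authors' deposited table, which gave 44 genes of 21937 listed, and all 44 had a p-value. The induced cells were dox-inducible transgenic A2lox stem cells of 129/Ola background that received doxycycline at 500 ng/ml for 48 h (2 libraries). The uninduced cells were the same transgenic line without doxycycline (2 libraries). Each value below is a group mean of normalized read counts, and the table gives no spread between the libraries of a group. The authors tested each gene with DESeq, and their p-values, Benjamini-Hochberg adjusted over all 18283 genes with a p, are the ones given here. The words "rose" and "fell" are kept for genes where the adjusted p was under 0.05. Whether a group's libraries were grown apart is not in the labels, so these p-values may reflect technical spread alone. All doxycycline-treated cells carried the transgene, and a response to the drug cannot be told apart from one to NeuroD1.

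Members of this family are small proteins built from 3 similar repeats that sit almost all in the inner mitochondrial membrane. They exchange ADP for ATP and move phosphate, carboxylic acids, amino acids, cofactors and iron-related solutes between the cytosol and the mitochondrial matrix. Neurons depend strongly on oxidative phosphorylation, whereas stem cells in culture also lean on glycolysis. Several carriers come as close paralogues with different tissue ranges. Older gene symbols keep some relatives out of the Slc25a naming, such as the uncoupling proteins Ucp1 to Ucp3, and these are given apart from the 44.

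Neurod1 itself had a mean of 4371 normalized reads in induced cells and 438 in uninduced cells in the authors' deposited table (adjusted p = 4.5e-274), with transgene and endogenous reads not separated. Of 5 stem cell markers 0 rose and 4 fell, and of 5 neuronal markers 5 rose and 0 fell. Fibroblast markers, which stand for the feeder cells used before the experiment, moved both ways, with 1 of 5 rising and 2 falling. The summed fibroblast marker level was 2970 normalized reads in induced cells and 2488 in uninduced cells, and none of the 5 was at 0 in either group. The part of feeder cells in the values below was not tested. In such bulk samples a smaller number of cells of a type and less RNA per cell cannot be told apart.

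Among the 44 carriers 8 rose, 9 fell and 27 did not pass. The share that passed was 38.6%, against 35.5% of all genes tested. Rises were 19.1% and falls 16.4% of all genes tested, so the members' counts lay near the background in both directions. At least 2-fold changes were called in 4 carriers (2 up and 2 down), against 11.7% of all genes tested. Carriers are mostly well expressed, and 31 of the 44 had a mean of 100 or more in the higher group. Of these 31, 6 rose and 8 fell, against 26.0% rising and 23.4% falling (49.4% called in all) among the 11273 genes at that level. Across the 40 carriers whose larger mean reached 10, the median log2 change with a pseudocount of 1 was -0.091 and the median size of the change was 0.34. The same values over 14691 genes at that level were 0.0013 and 0.34.

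Of the 14 called carriers at a mean of 100 or more, 9 changed by less than 1.5-fold in either direction. Among all genes at that level the count was 2836 of 5566 called, and the difference was not tested. The 17 carriers at that level that did not pass lay between 0.682 and 1.24 times uninduced in the authors' deposited table. Summed over all 44, carrier reads came to 36122 in induced cells and 39196 in uninduced cells, a ratio of 0.922. As a description of the neighbouring transporters, 277 other genes named Slc with a family and member number were listed. Of these, 25 rose and 94 fell among 265 with a p, against 19.1% rising and 16.4% falling of all genes tested. At a mean of 100 or more, 15 rose and 86 fell among 145, against 26.0% and 23.4% of all genes at that level. Where the larger mean reached 10, the median log2 change of these other Slc genes was -0.37. No test of the difference between the families was made.

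**Figure D1:**
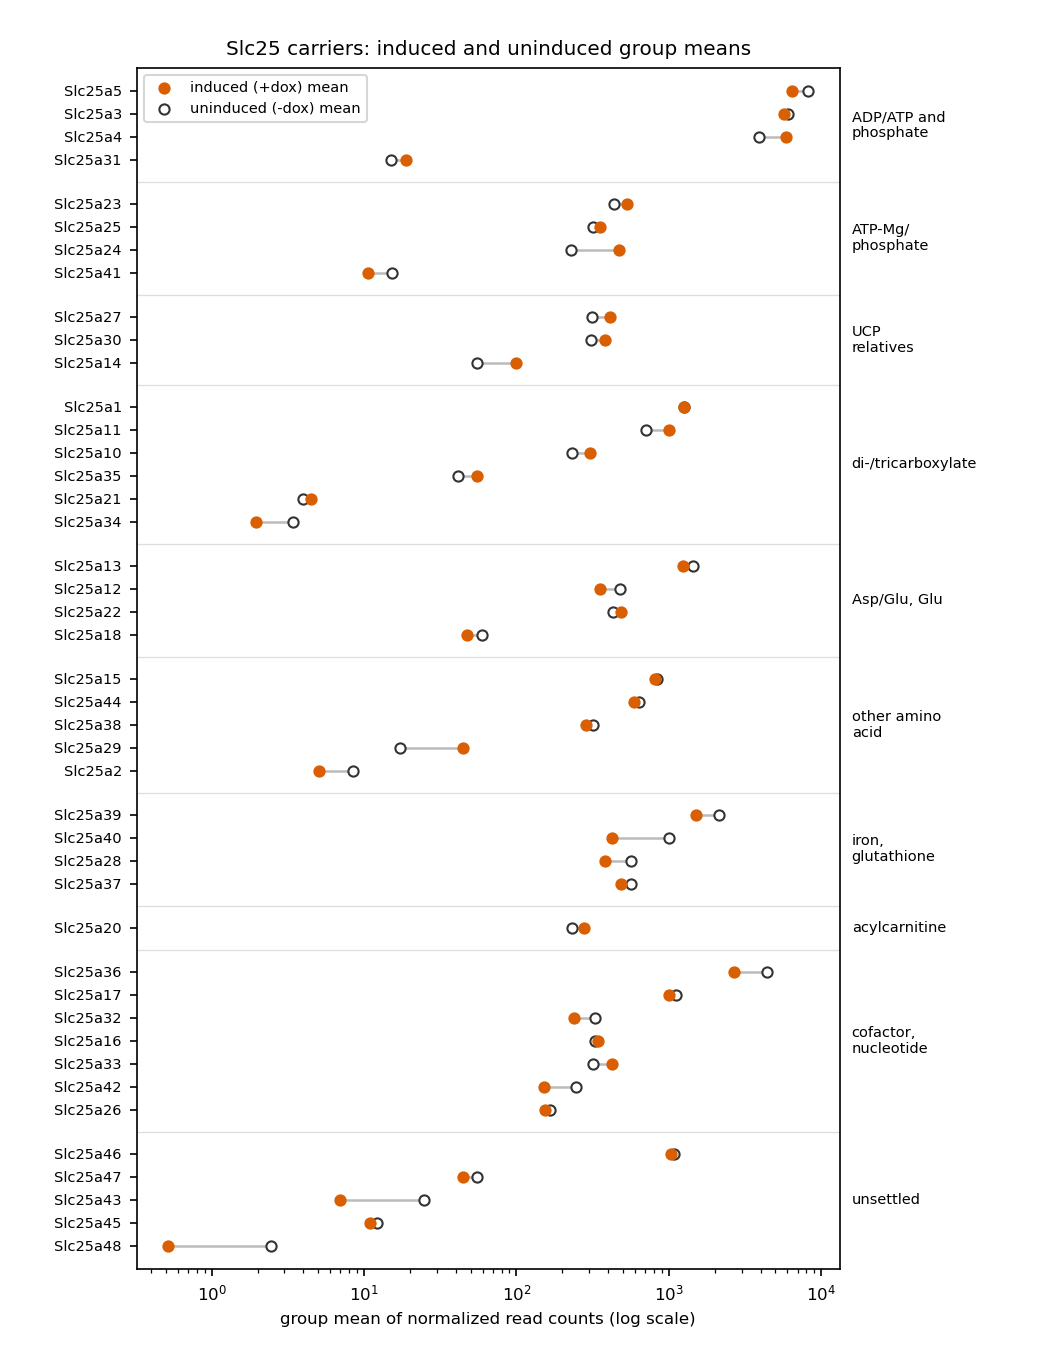
Group means of normalized read counts (log axis) for 43 carriers, in rows by transported solute, with induced means as filled points and uninduced means as open points. Slc25a5, Slc25a3, Slc25a4 and Slc25a36 stand farthest to the right, at 2690 to 8188. Slc25a48 and Slc25a43, both at few reads, show the widest gaps between the points, followed by Slc25a29, Slc25a40 and Slc25a24.

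The adenine nucleotide translocators exchange matrix ATP for cytosolic ADP, and their paralogues moved in opposite directions. Slc25a4, the form typical of heart, muscle and brain, had a mean of 5873 normalized reads in induced cells and 3922 in uninduced cells, a 1.497-fold rise (adjusted p = 9.1e-14) in the authors' deposited table. Slc25a5, the form typical of dividing cells, had 6427 in induced cells and 8188 in uninduced cells and fell to 0.785 times that level (adjusted p = 0.0030) in the authors' deposited table. The germ cell form Slc25a31 was low, at 18.9 in induced cells and 14.9 in uninduced cells (adjusted p = 0.81 in the authors' deposited table).

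Added together, the translocators came to 12318 reads in induced cells and 12125 in uninduced cells, a ratio of 1.02. Summed per kilobase of exon they came to 8242 in induced cells and 8648 in uninduced cells, so the direction depends on the length correction. Per kilobase of exon, Slc25a4 made up 37.0% of the translocators in induced cells and 23.6% in uninduced cells, while Slc25a5 made up 62.9% in induced cells and 76.4% in uninduced cells. The ratio of Slc25a4 to Slc25a5 per kilobase was 0.589 in induced cells and 0.309 in uninduced cells, so Slc25a5 was the higher of the pair in both. Those shares rest on group means and have no error. Processed pseudogenes of Slc25a5 are common in mammals, and how the counting treated reads shared with them is not given in the sources used here. The phosphate carrier Slc25a3, which supplies ATP synthase, had 5729 in induced cells and 6091 in uninduced cells and did not pass (adjusted p = 0.43 in the authors' deposited table).

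The stretches just upstream of this pair and of the most changed abundant carriers are shown because the induced factor binds E-boxes, the sequence CANNTG. NeuroD1 is known to favour the forms CAGATG and CAGCTG. Each line gives the 250 bases before the RefSeq gene start in GRCm38.p6, 5′ to 3′ on the gene's strand, with every CANNTG match in capitals. The windows are chr8:46211063-46211312 (minus strand) for Slc25a4, chrX:36795347-36795596 (plus strand) for Slc25a5, chr3:109122899-109123148 (plus strand) for Slc25a24, chr5:8422588-8422837 (plus strand) for Slc25a40 and chr9:97111042-97111291 (minus strand) for Slc25a36.
Slc25a4: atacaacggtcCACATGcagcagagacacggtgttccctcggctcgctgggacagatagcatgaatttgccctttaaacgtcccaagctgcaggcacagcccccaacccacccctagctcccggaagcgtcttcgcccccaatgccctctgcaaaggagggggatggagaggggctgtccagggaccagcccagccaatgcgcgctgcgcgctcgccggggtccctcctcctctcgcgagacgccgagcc
Slc25a5: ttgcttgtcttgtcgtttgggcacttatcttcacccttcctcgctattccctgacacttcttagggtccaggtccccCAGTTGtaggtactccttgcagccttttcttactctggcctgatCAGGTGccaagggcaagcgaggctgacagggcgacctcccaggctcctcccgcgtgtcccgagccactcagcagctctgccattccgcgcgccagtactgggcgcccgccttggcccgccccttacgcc
Slc25a24: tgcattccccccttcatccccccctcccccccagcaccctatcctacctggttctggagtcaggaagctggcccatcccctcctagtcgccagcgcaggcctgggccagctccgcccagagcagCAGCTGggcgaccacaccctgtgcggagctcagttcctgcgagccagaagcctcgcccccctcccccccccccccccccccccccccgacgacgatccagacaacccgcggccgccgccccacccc
Slc25a40: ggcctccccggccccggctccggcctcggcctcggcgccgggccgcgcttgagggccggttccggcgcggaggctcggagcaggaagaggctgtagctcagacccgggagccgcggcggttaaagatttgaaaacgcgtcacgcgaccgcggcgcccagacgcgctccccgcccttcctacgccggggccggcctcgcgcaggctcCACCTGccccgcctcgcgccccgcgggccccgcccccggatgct
Slc25a36: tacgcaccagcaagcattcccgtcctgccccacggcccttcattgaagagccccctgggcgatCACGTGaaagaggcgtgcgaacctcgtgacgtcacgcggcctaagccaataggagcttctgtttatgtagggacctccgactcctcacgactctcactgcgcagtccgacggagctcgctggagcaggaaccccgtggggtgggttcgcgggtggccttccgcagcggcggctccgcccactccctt

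Of these 5 windows only that of Slc25a24 held one of the favoured forms, a CAGCTG whose first base lay 126 bases before the start. The window of Slc25a5 held 2 matches of other forms, one CAGTTG and the other CAGGTG. Those of Slc25a4, Slc25a40 and Slc25a36 held 1 match each, of the form CACATG in Slc25a4, CACCTG in Slc25a40 and CACGTG in Slc25a36. A promoter window was found for 34 of the 44 carriers. Carriers for which none was used include Slc25a2, Slc25a26, Slc25a27, Slc25a32, Slc25a35, Slc25a37, Slc25a41, Slc25a44 and Slc25a46. On either strand CANNTG was present for 25 of the 34 carriers, and for 69.3% of the 27025 genes with windows. It was present for 6 of 7 carriers that rose, 4 of 7 that fell and 15 of 20 that did not pass. Over the genes of the table with a window, the shares were 60.5% of those that rose, 64.5% of those that fell and 65.4% of those that did not pass. CAGATG was present for 0 of 7 carriers that rose, 0 of 7 that fell and 5 of 20 that did not pass, and for 16.3% of all genes with windows. Among genes of the table its shares were 13.4% of those that rose, 11.6% of those that fell and 13.6% of those that did not pass. CAGCTG was present for 1 of 7 carriers that rose, 0 of 7 that fell and 1 of 20 that did not pass, and for 14.7% of all genes with windows. For CAGCTG the shares among genes of the table were 17.2% of those that rose, 14.8% of those that fell and 14.6% of those that did not pass. CANNTG includes both favoured forms. Such matches are letters in a short window and were not set against binding data here.

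The calcium-regulated carriers exchange ATP-Mg for phosphate and so set the size of the matrix adenine nucleotide pool. Slc25a24 had the second largest fold among the carriers that rose, with means of 472 in induced cells and 228 in uninduced cells, 2.07-fold in the authors' deposited table (adjusted p = 5.2e-12). The paralogues Slc25a23 and Slc25a25 did not pass. Slc25a23 had 534 in induced cells and 437 in uninduced cells (adjusted p = 0.066), and Slc25a25 had 353 in induced cells and 317 in uninduced cells (adjusted p = 0.49), in the authors' deposited table. The short form Slc25a41, which lacks the calcium-binding domain, was low at 10.5 in induced cells and 15.2 in uninduced cells (adjusted p = 0.71 in the authors' deposited table). Per kilobase, Slc25a24 made up 35.3% of this set in induced cells and 23.3% in uninduced cells. Its place by level per kilobase among the 44 carriers was 21 in induced cells and 30 in uninduced cells.

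Relatives of the uncoupling proteins were all higher in induced cells, and 2 of the 3 rose, against 19.1% of all genes tested. Of the 2 with a larger mean of 100 or more 1 rose, against 26.0% of all genes at that level. With 3 genes the difference was not tested. Of the uncoupling proteins themselves, given apart, Ucp2 fell to 0.802 times (adjusted p = 0.0060) in the authors' deposited table. Ucp1 and Ucp3 did not pass. Slc25a14, described in brain as BMCP1 or UCP5, had means of 99.2 in induced cells and 55.2 in uninduced cells, 1.80-fold in the authors' deposited table (adjusted p = 0.0090). Slc25a27, the brain-enriched UCP4, had 409 in induced cells and 313 in uninduced cells, 1.31-fold (adjusted p = 0.032) in the authors' deposited table. Slc25a30, the closest relative of Slc25a14, had 382 in induced cells and 308 in uninduced cells and did not pass (adjusted p = 0.090 in the authors' deposited table).

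Carriers of citrate, dicarboxylates and oxoglutarate link the tricarboxylic acid cycle to the cytosol. The oxoglutarate/malate carrier Slc25a11, one arm of the malate-aspartate shuttle, had means of 1000.0 in induced cells and 704 in uninduced cells, a 1.42-fold rise in the authors' deposited table (adjusted p = 9.3e-06). The dicarboxylate carrier Slc25a10 had 305 in induced cells and 230 in uninduced cells, 1.33-fold (adjusted p = 0.032) in the authors' deposited table. About 11.3% of the exon length of Slc25a10 lies opposite a gene on the other strand, and strand use in the counting is not given in the sources used here. The citrate carrier Slc25a1, which exports citrate for lipid synthesis, was nearly level, at 1257 in induced cells and 1249 in uninduced cells (adjusted p = 1 in the authors' deposited table). Slc25a35 had 55.4 in induced cells and 41.3 in uninduced cells (adjusted p = 0.42 in the authors' deposited table), with 22.3% of its exon length opposite another gene. The oxodicarboxylate carrier Slc25a21 and the orphan Slc25a34 had means below 5 in both groups.

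**Figure D2:**
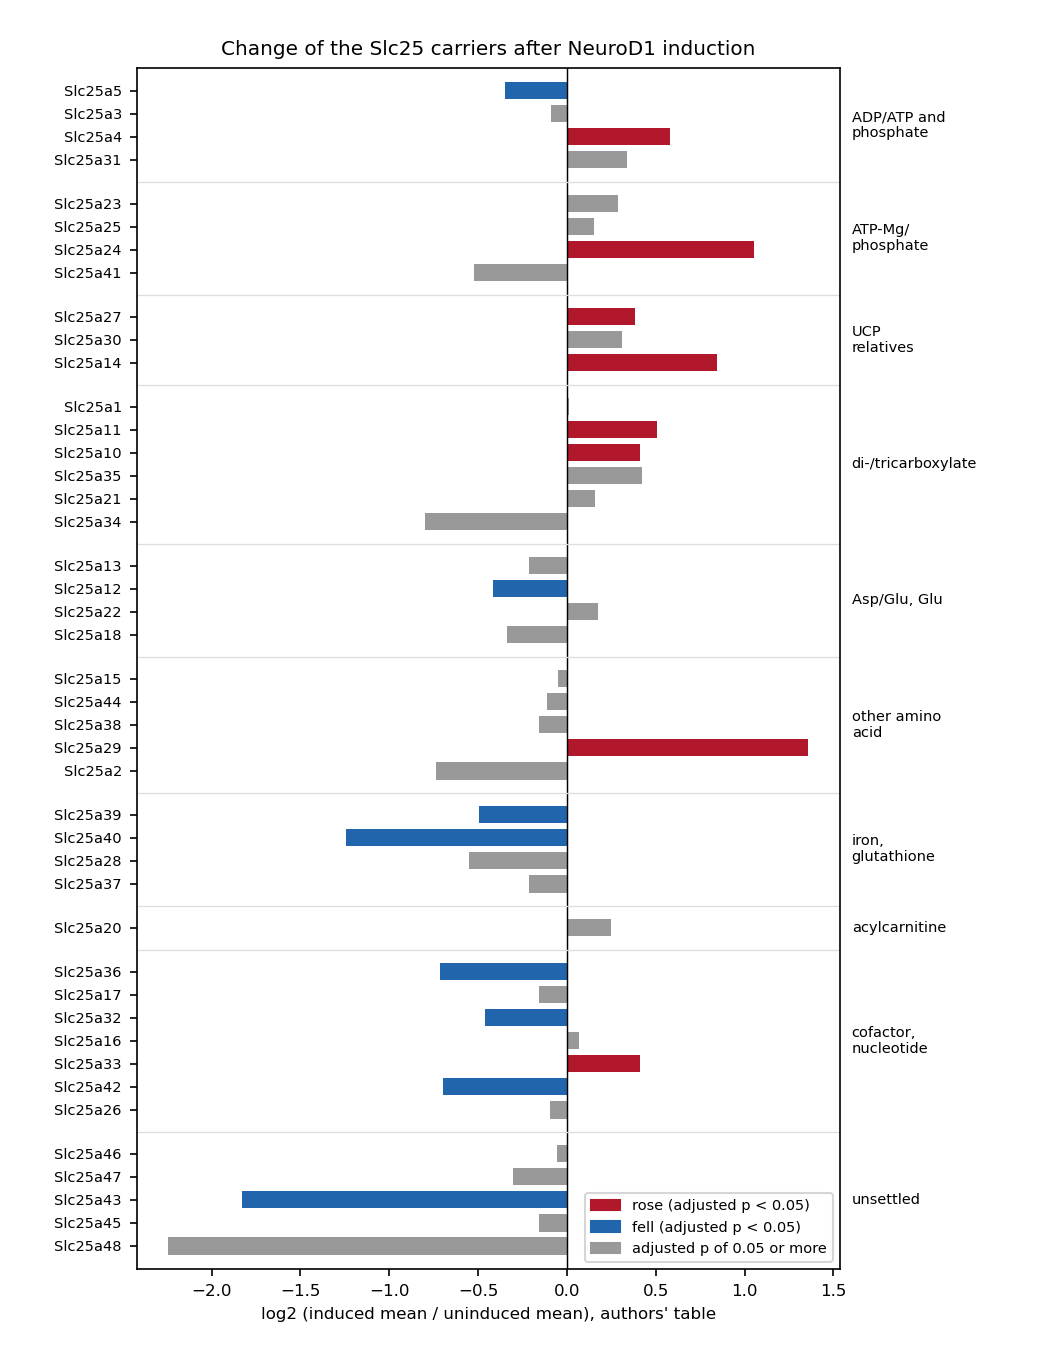
log2 ratio of induced over uninduced mean for 43 carriers in the authors' table, in the same rows, coloured by the adjusted p. All 3 uncoupling-protein relatives point right (2 rose), and all 4 iron and glutathione carriers point left (2 fell). These groups were drawn up with earlier results of these data known. Slc25a48, whose means were 0.521 in induced cells and 2.47 in uninduced cells, has the longest bar without passing.

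The other arm of the malate-aspartate shuttle is the pair of aspartate/glutamate carriers. Slc25a12 (aralar), the form of brain and muscle, fell to 0.748 times, with means of 356 in induced cells and 476 in uninduced cells (adjusted p = 0.0069) in the authors' deposited table. Slc25a13 (citrin), the form of liver and dividing tissues, had 1246 in induced cells and 1447 in uninduced cells and did not pass (adjusted p = 0.060) in the authors' deposited table. Per kilobase, Slc25a12 made up 12.3% of the pair in induced cells and 13.9% in uninduced cells. The glutamate carriers Slc25a22 and Slc25a18 did not pass either. Slc25a22 had 482 in induced cells and 428 in uninduced cells (adjusted p = 0.36), and Slc25a18 had 47.2 in induced cells and 59.6 in uninduced cells (adjusted p = 0.50), in the authors' deposited table.

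Among the other amino acid carriers 1 of 5 rose, against 19.1% of all genes tested. Slc25a29, a carrier of basic amino acids, had the largest fold of the carriers that rose, with means of 44.4 in induced cells and 17.3 in uninduced cells, 2.56-fold in the authors' deposited table (adjusted p = 0.0092). Its level was low, at 22.5 normalized reads per kilobase in induced cells and 8.77 in uninduced cells. The ornithine carrier Slc25a15 had 806 in induced cells and 836 in uninduced cells (adjusted p = 0.84 in the authors' deposited table). The branched-chain amino acid carrier Slc25a44 had 588 in induced cells and 636 in uninduced cells (adjusted p = 0.56 in the authors' deposited table). Slc25a38, which brings glycine in for heme synthesis, had 285 in induced cells and 317 in uninduced cells (adjusted p = 0.49 in the authors' deposited table). The second ornithine carrier Slc25a2 had 5.03 in induced cells and 8.40 in uninduced cells (adjusted p = 0.69 in the authors' deposited table).

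Carriers of iron and glutathione were all lower in induced cells, and 2 of the 4 fell. All 4 had a larger mean of 100 or more, where 23.4% of all genes tested fell, and the difference was not tested. Slc25a40, a paralogue of the glutathione importer Slc25a39, had the smallest adjusted p of the family, with means of 421 in induced cells and 998 in uninduced cells, 0.422 times (adjusted p = 3.3e-27) in the authors' deposited table. Slc25a39 itself, needed for glutathione import into the matrix, had 1515 in induced cells and 2138 in uninduced cells, 0.708 times (adjusted p = 8.9e-08) in the authors' deposited table. Both members of the pair thus fell, and their summed reads were 1935 in induced cells and 3136 in uninduced cells, a ratio of 0.617. Per kilobase the share of Slc25a40 in the pair was 14.4% in induced cells and 22.02% in uninduced cells. The mitoferrins carry iron for heme and iron-sulfur clusters. Mitoferrin 2 (Slc25a28) had 384 in induced cells and 562 in uninduced cells, 0.682 times, and did not pass (adjusted p = 0.071) in the authors' deposited table. Mitoferrin 1 (Slc25a37), the erythroid form, had 484 in induced cells and 562 in uninduced cells (adjusted p = 0.16 in the authors' deposited table).

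Cofactor and nucleotide carriers had 4 falls and 1 rise among 8, all with a larger mean of 100 or more. Of all genes tested at that level 23.4% fell and 26.0% rose (49.4% called in all), and the difference was not tested. Slc25a36, a pyrimidine nucleotide carrier, had means of 2690 in induced cells and 4422 in uninduced cells, 0.608 times (adjusted p = 6.9e-19) in the authors' deposited table. The paralogue Slc25a33, which also carries pyrimidine nucleotides, moved the other way, with 422 in induced cells and 318 in uninduced cells, 1.33-fold (adjusted p = 0.010) in the authors' deposited table. Slc25a36 was 2.27 times as high per kilobase as Slc25a33 in induced cells and 4.95 times in uninduced cells. About 14.9% of the exon length of Slc25a33 lies opposite a gene on the other strand.

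Slc25a42, a carrier of coenzyme A, fell to 0.616 times, with 152 in induced cells and 246 in uninduced cells (adjusted p = 0.00039) in the authors' deposited table. The folate carrier Slc25a32 fell to 0.728 times, with 239 in induced cells and 329 in uninduced cells (adjusted p = 0.011) in the authors' deposited table. Another 3 of this group did not pass. Slc25a16, also linked to coenzyme A, had 345 in induced cells and 329 in uninduced cells (adjusted p = 0.84), and the S-adenosylmethionine carrier Slc25a26 had 155 in induced cells and 165 in uninduced cells (adjusted p = 0.83), in the authors' deposited table. The peroxisomal carrier Slc25a17, which lies outside mitochondria, had 996 in induced cells and 1109 in uninduced cells (adjusted p = 0.36 in the authors' deposited table).

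The acylcarnitine carrier Slc25a20, which brings fatty acids in for oxidation, had 276 in induced cells and 232 in uninduced cells and did not pass (adjusted p = 0.27 in the authors' deposited table). Among carriers with no settled substrate Slc25a43 was the one that fell, to 0.281 times and at few reads, with means of 6.98 in induced cells and 24.8 in uninduced cells (adjusted p = 0.015) in the authors' deposited table. Slc25a46, an outer membrane protein of mitochondrial dynamics, had 1033 in induced cells and 1074 in uninduced cells (adjusted p = 0.80 in the authors' deposited table). Slc25a47, Slc25a45 and Slc25a48 did not pass (adjusted p = 0.60, 0.99 and 0.68 in the authors' deposited table). Slc25a47 had means of 44.5 in induced cells and 54.9 in uninduced cells, and Slc25a45 had 10.9 in induced cells and 12.2 in uninduced cells.

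Ordered by level per kilobase of exon, Slc25a5 led in both groups, at 5183 in induced cells and 6603 in uninduced cells. Slc25a4 and Slc25a3 exchanged their places, with 3051 and 2944 in induced cells and 2038 and 3130 in uninduced cells. Slc25a39 held the fourth place in both groups, at 899 in induced cells and 1269 in uninduced cells. Slc25a1 held place 5 in induced cells (755) and place 6 in uninduced cells (750), and Slc25a36 held place 8 in induced cells (507) and place 5 in uninduced cells (834). With no spread per group it is not known which neighbours in this order differ. Slc25a5, Slc25a3 and Slc25a36, the carriers with the highest uninduced means, together held 41.1% of all carrier reads in induced cells and 47.7% in uninduced cells. Picking them by uninduced mean favours a lower induced share. Slc25a4, which had more reads than Slc25a3 in induced cells, held 16.3% in induced cells and 10.0% in uninduced cells.

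**Figure D3:**
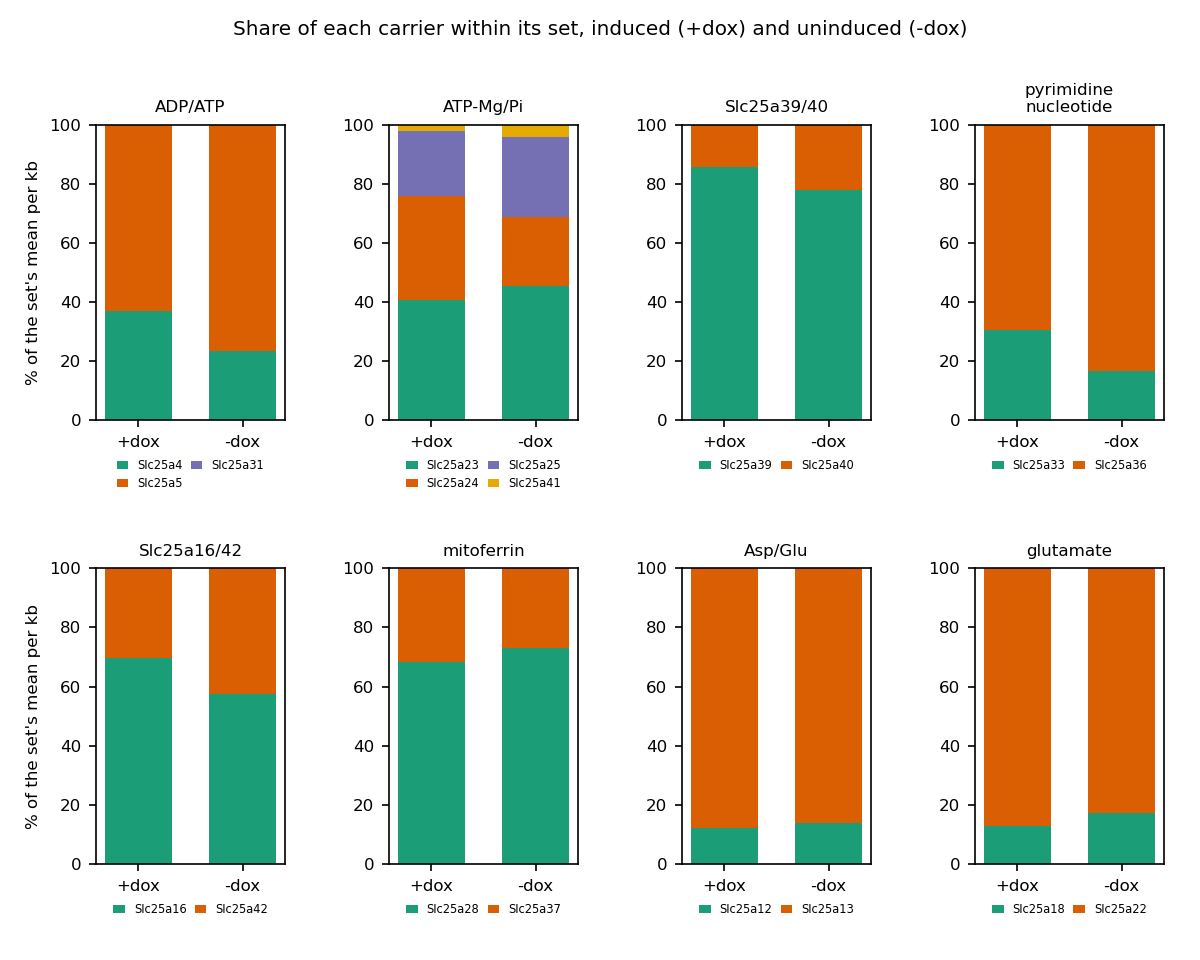
Share of each paralogue in its set, in percent of the set's group mean per kilobase of exon, with the induced bar left of the uninduced bar. Slc25a4 makes up 37.0% of the ADP/ATP set in induced cells and 23.6% in uninduced cells, and Slc25a33 30.6% of its pair in induced cells and 16.8% in uninduced cells.

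Genes that act beside the carriers were counted in 10 lists, with no set test. Of genes with a larger mean of 100 or more, 49.4% of all those tested were called, against 17.6% of 17 in the tricarboxylic acid cycle list, 37.5% of 16 in the heme and iron-sulfur list and 3 of 12 genes in the import list. The share at that level was 53.8% of 13 folate one-carbon genes and 58.3% of 12 carnitine and fatty acid oxidation genes, and the calls were 5 of 10 pyruvate entry genes, 3 of 6 NADH shuttle genes and 3 of 6 calcium uniporter genes. In the glutamate, ornithine and proline list 6 of 10 were called, and among relatives under other symbols 3 of 4. The lists are short, and these shares were not tested against the background. For the counts by direction here and below, 19.1% of all genes tested rose and 16.4% fell. At a mean of 100 or more, 26.0% rose and 23.4% fell. Relatives under other symbols had 2 rises and 1 fall among 7. Mtch1, a carrier-like protein of the outer membrane, rose 1.27-fold and Mcart1, the older symbol of the NAD carrier Slc25a51, rose 1.32-fold (adjusted p = 6.0e-05 and 0.00056) in the authors' deposited table. Ucp2 fell to 0.802 times, with 824 in induced cells and 1027 in uninduced cells (adjusted p = 0.0060) in the authors' deposited table. The machinery that brings carriers into the inner membrane had 1 rise and 2 falls among 12, with a median log2 change of -0.082. Its insertase gene Timm22 rose 1.34-fold (adjusted p = 0.0045) in the authors' deposited table. Tomm20, a receptor gene, fell to 0.760 times (adjusted p = 0.00040) in the authors' deposited table. Tomm70a, named after its value was seen, was at 0.949 times and did not pass (adjusted p = 0.53 in the authors' deposited table). Tomm40, the pore of the outer membrane, fell to 0.845 times (adjusted p = 0.015) in the authors' deposited table.

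Enzymes of the tricarboxylic acid cycle had 0 rises and 3 falls among 17, with a median log2 change of 0.0085. All 17 had a larger mean of 100 or more, where 26.0% of all genes tested rose and 23.4% fell. Idh3a, a subunit of isocitrate dehydrogenase, and Ogdh, of oxoglutarate dehydrogenase, were among the falls, at 0.792 and 0.861 times uninduced in the authors' deposited table. Genes of pyruvate entry had 1 rise and 4 falls among 11. Of the kinases that inhibit pyruvate dehydrogenase, Pdk1 fell to 0.657 times and Pdk2 rose 1.71-fold (adjusted p = 3.3e-13 and 0.0023) in the authors' deposited table. The pyruvate carrier subunit gene Mpc1 fell to 0.681 times (adjusted p = 0.028) in the authors' deposited table. The soluble and membrane enzymes of the NADH shuttles had 1 rise and 2 falls among 7. Mdh1, the cytosolic malate dehydrogenase, rose 1.25-fold, and Got1 and Gpd2 were at 0.837 and 0.733 times in the authors' deposited table. Within the malate-aspartate shuttle the carriers moved both ways, with Slc25a11 higher and Slc25a12 lower in induced cells.

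Folate one-carbon genes, which use the folate that Slc25a32 carries, had 1 rise and 6 falls among 13 and a median log2 change of -0.24. All 13 had a larger mean of 100 or more, where 26.0% of all genes tested rose and 23.4% fell. The difference was not tested. Gldc of the glycine cleavage system was at 0.610 times and Mthfd2 at 0.576 times (adjusted p = 3.1e-21 and 2.5e-12) in the authors' deposited table. Shmt2, the mitochondrial serine hydroxymethyltransferase, fell to 0.770 times (adjusted p = 0.00012) in the authors' deposited table. The 1 rise, named after its value was seen, was Mthfd2l, a paralogue of Mthfd2, at 1.77-fold (adjusted p = 0.0015) in the authors' deposited table. Glutamate, ornithine and proline genes had 2 rises and 4 falls among 13 with a p. Oat, the ornithine aminotransferase, rose 1.66-fold and Glud1, glutamate dehydrogenase, fell to 0.737 times (adjusted p = 6.8e-11 and 1.5e-08) in the authors' deposited table. Ass1, which joins citrulline and aspartate, fell to 0.651 times (adjusted p = 5.9e-07) in the authors' deposited table. Heme and iron-sulfur genes, which use imported iron and glycine, had 3 rises and 3 falls among 17. Alad rose 1.54-fold, and Cpox and the inner membrane transporter gene Abcb10 were at 0.665 and 0.710 times in the authors' deposited table.

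Carnitine and fatty acid oxidation genes had 4 rises and 3 falls among 13, against 19.1% rising and 16.4% falling of all genes tested. Cpt1a, which makes the acylcarnitines that Slc25a20 carries, had means of 168 in induced cells and 583 in uninduced cells, 0.288 times (adjusted p = 1.6e-33) in the authors' deposited table. Acadvl and Acaa2, enzymes of oxidation inside the matrix, rose by 1.68-fold and 1.58-fold according to the authors' deposited table. Calcium uniporter genes had 2 rises and 2 falls among 7. Its regulators Micu2 and Micu3 were at 1.47 and 0.656 times (adjusted p = 0.00011 and 7.0e-07) in the authors' deposited table. Mcub had 16.8 in induced cells and 1.86 in uninduced cells (adjusted p = 0.0046 in the authors' deposited table).

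**Figure D4:**
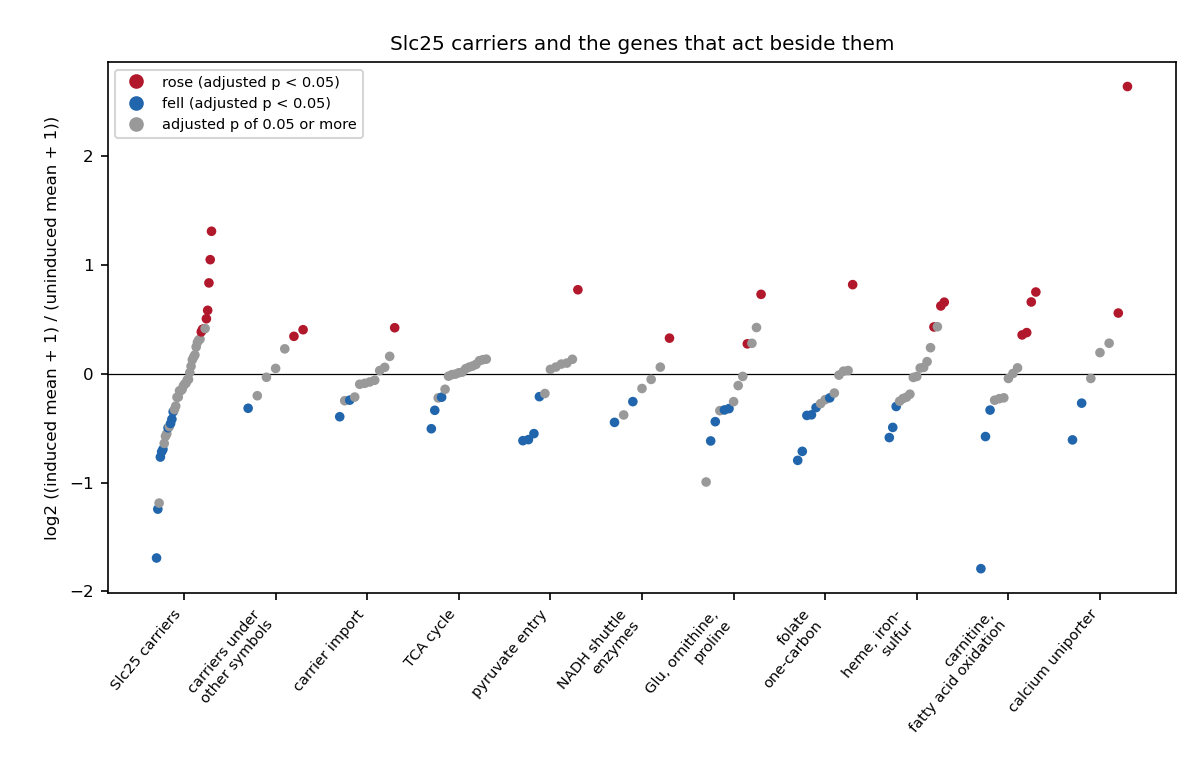
log2 change with a pseudocount of 1 for each carrier (leftmost column) and for each gene with a p in the 10 lists, 1 point per gene, coloured by the adjusted p. Points of the tricarboxylic acid cycle list lie close to 0 (median 0.0085), and those of the carriers spread on both sides.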

How the data were processed

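RNA was measured in 4 libraries, grouped by sample title into 2 induced and 2 uninduced. The 3 chromatin samples were not analysed here. Per the submitters' processing notes the tools for RNA were HTSeq 0.5.4p1 and TopHat2 2.0.8 beside DESeq, SAMtools 0.1.19 and FastQC 2.6.14, with build mm9 and no stated roles. The authors' deposited table holds group means of normalized read counts (a signal on the authors' scale) and their fold change as a ratio of induced over uninduced mean. It also holds the authors' log2 fold change, their p-values and their adjusted p-values. At a relative tolerance of 1e-06, 100% of folds equalled the ratio of means and 100% of adjusted p equalled a Benjamini-Hochberg adjustment over all p. Another 4 columns of values per library have names that match no sample label and were not used, so the depth and spread of each library are not given.

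Members are symbols of the form Slc25a plus number. Members, roles and the 10 lists were chosen with earlier results of these data known. Each member with an adjusted p under 0.05, the highest and lowest of each role group and close paralogues are named, and list genes are named by the smallest adjusted p, up to 3 per list. List genes marked as named after their value was seen are added to these. The remaining members are named too, except that 1 carrier and 1 list gene are counted but not reported here. Changes over lists used log2 with a pseudocount of 1 and a larger mean of at least 10. Levels per kilobase used the union of exons in GENCODE M21 basic (GRCm38), found for 44 of 44 members, which may differ from the annotation the authors counted on. Older symbols were matched through RefSeq synonyms, for 133 of 134 list genes. E-box letters were searched in RefSeq GRCm38.p6 windows. The adjustment code was tested on simulated data. Scripts ran in Python 3.11.15 with matplotlib 3.10.9, scipy 1.17.1, numpy 2.4.6 and pandas 2.3.3. Alternatives were other pseudocounts, minimum means, thresholds, a minimum fold, equal totals and a recomputed adjustment.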

Additional observations from a re-analysis of the deposited data

How the results depend on the processing

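At an adjusted p threshold of 0.01, 5 carriers had risen and 7 had fallen, and Slc25a10, Slc25a27, Slc25a33, Slc25a32 and Slc25a43 were the calls lost. With a minimum change of 1.5-fold, 3 rises and 5 falls were left. The authors' p-values adjusted anew over genes with a mean of 10 or more called 1 carrier more, Slc25a13 (adjusted p = 0.0482). Scaling both groups to the same total shifted each log2 change by -0.0046 and left the p-values as deposited. The smallest change of a carrier was 0.0099 (Slc25a1), so this scaling could turn no direction among the 44. Minimum means of 10 and 50 left 7 to 8 rises and 8 to 9 falls. The median log2 change lay between -0.10 and -0.088 under the pseudocounts, minimum means and scaling tried. No paired analysis was possible because the deposited library columns carry no sample label and only group means were used. For the same reason a linear model on single libraries and tests without each library were not run. Means of few reads limit Slc25a2, Slc25a21, Slc25a34 and Slc25a48, which were below 10 in both groups.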
